A study of Mus musculus with 2 samples.

Results

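The genes described here are p53, its targets and the regulators of apoptosis, in endothelial cells isolated from mice treated with GFP or with NeuroD1. They were chosen by symbol from a list of 37 names, of which 36 matched a row of the table of 53465 genes. The name Tp53inp1 matched none, and the mouse gene Trp53inp1 is listed on its own. The mice were of the C57Bl/6 strain and carried tie2-cre, a Cre recombinase driven by Tie2, a receptor of endothelial cells that is also active in the blood lineage. Both groups share that genotype and differ by treatment, GFP or NeuroD1, a transcription factor of neuronal differentiation. Per the labels, cells of 3 mice were collected and 10000 cells were lysed, and there was 1 library per group. For vector, dose, time, age and sex the sources used here give nothing.

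p53 is a transcription factor that cells stabilise after DNA damage and other stress. MDM2, itself a p53 target, marks p53 for degradation, which makes the pair a feedback loop. p53 targets halt the cell cycle, repair DNA or start apoptosis. In the mitochondrial route to apoptosis, BH3-only proteins bind the pro-survival members of the BCL2 family and release BAX and BAK, which open the outer mitochondrial membrane. Cytochrome c then leaves and joins APAF1 to activate caspase 9. In the other route, death receptors such as FAS activate caspase 8. Inhibitor of apoptosis proteins (IAPs) restrain caspases or death receptor signalling, and DIABLO relieves their block. Most of these steps are set by protein binding, cleavage and stability, which RNA levels do not show. Endothelial cells depend on this balance when vessels regress or are injured.

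Promoters are shown first because p53 acts by binding DNA. RefSeq promoter windows on GRCm38.p6, each spanning the region just before and after a gene's start, were found for 30 of the 36 genes (42 windows, since some genes have several starts). Bik, Perp, Pmaip1, Tnfrsf10b, Trp53inp1 and Zmat3 had no window, and sequence outside the windows was not searched. A p53 half-site, the consensus of 10 letters whose reverse complement is the same consensus, was present in 8 of 42 windows (19.0%), against 8.36% of 32851 windows of the same length. The genes include p53 targets by choice, so the higher share is not independent of how the list was made. The capitals below mark the half-site, each with 10 bases on either side, and all are read on the gene's strand.

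Cdkn1a, chr17:29090896-29090925: tcctgggtggGGACTAGCTTtctggccttc
Cdkn1a, chr17:29090918-29090947: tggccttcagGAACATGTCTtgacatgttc
Trp53, chr11:69580274-69580303: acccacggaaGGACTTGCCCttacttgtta
Mdm2, chr10:117710925-117710954: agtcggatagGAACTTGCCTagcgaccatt
Ccng1, chr11:40755452-40755481: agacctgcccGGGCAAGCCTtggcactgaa
Sesn1, chr10:41887256-41887285: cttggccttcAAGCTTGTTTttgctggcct
Gadd45a, chr6:67037428-67037457: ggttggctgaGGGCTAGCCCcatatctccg
Bax, chr7:45467080-45467109: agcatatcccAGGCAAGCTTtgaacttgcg
Birc2, chr9:7836777-7836806: cagtcaacccAGGCTAGTCTcgaatttgcg

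The half-sites of Cdkn1a lie 12 bases apart, and that window was the single one among the 42 with a pair no more than 13 bases apart. Over all 32851 windows, 0.0731% held such a pair. Of the 8 genes with a half-site, 4 stood higher and 4 lower in NeuroD1, with log2 differences from -0.29 to 0.39, so this group showed no common direction. Of the 22 with a window but no half-site, 10 stood higher and 12 lower. A match of letters is a description of sequence, and p53 binding was not measured.

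All levels are in FPKM, that is, fragments relative to exon length and to a factor for each library as scaled by the authors. That factor does not follow the read totals given next. At equal exon length, 1 read counts 1.13 times as much in NeuroD1 as in GFP, and every ratio here includes this. Whole reads were recovered from the FPKM for 30 of the 36 genes, and they came to 2011126 and 2001425 reads in the GFP and NeuroD1 libraries over the whole table. Genes at or below 1000 FPKM held 958795 and 851963 of them. The 30 genes held 1715 and 1563. Ratios of FPKM, NeuroD1 over GFP, are given with exact Clopper-Pearson 95% intervals from these reads, which cover counting error only. No p-value was computed, and no difference has a replicate check. The authors' library preparation labels RNA at the 3' end of the transcript, so that scaling by length may lower long genes, and levels of different genes are compared only on the FPKM scale.

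Endothelial markers such as Pecam1, Cdh5 and Cldn5 were present in both libraries. To place low levels, 1499 genes for receptors of odours, pheromones and taste were used, which endothelial cells are not known to need. Their median was 1.54 FPKM (GFP) and 1.41 FPKM (NeuroD1), and their 95th percentile at 4.40 and 4.78 FPKM. Of the 16 endothelial markers, 14 were above that percentile in each library. The counts were 6 and 3 of 15 rows for microglia and macrophage markers, 6 and 4 of 10 for neutrophil, 2 and 4 of 12 for neuron, 2 and 2 of 10 for mural, 1 and 0 of 8 for astrocyte and 2 and 2 of 8 for oligodendrocyte markers. Of the p53 and apoptosis genes, 15 were above the percentile in both libraries, 9 in one library only and 12 in neither. Values below it lie within the range of genes that serve as background here.

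**Figure D1:**
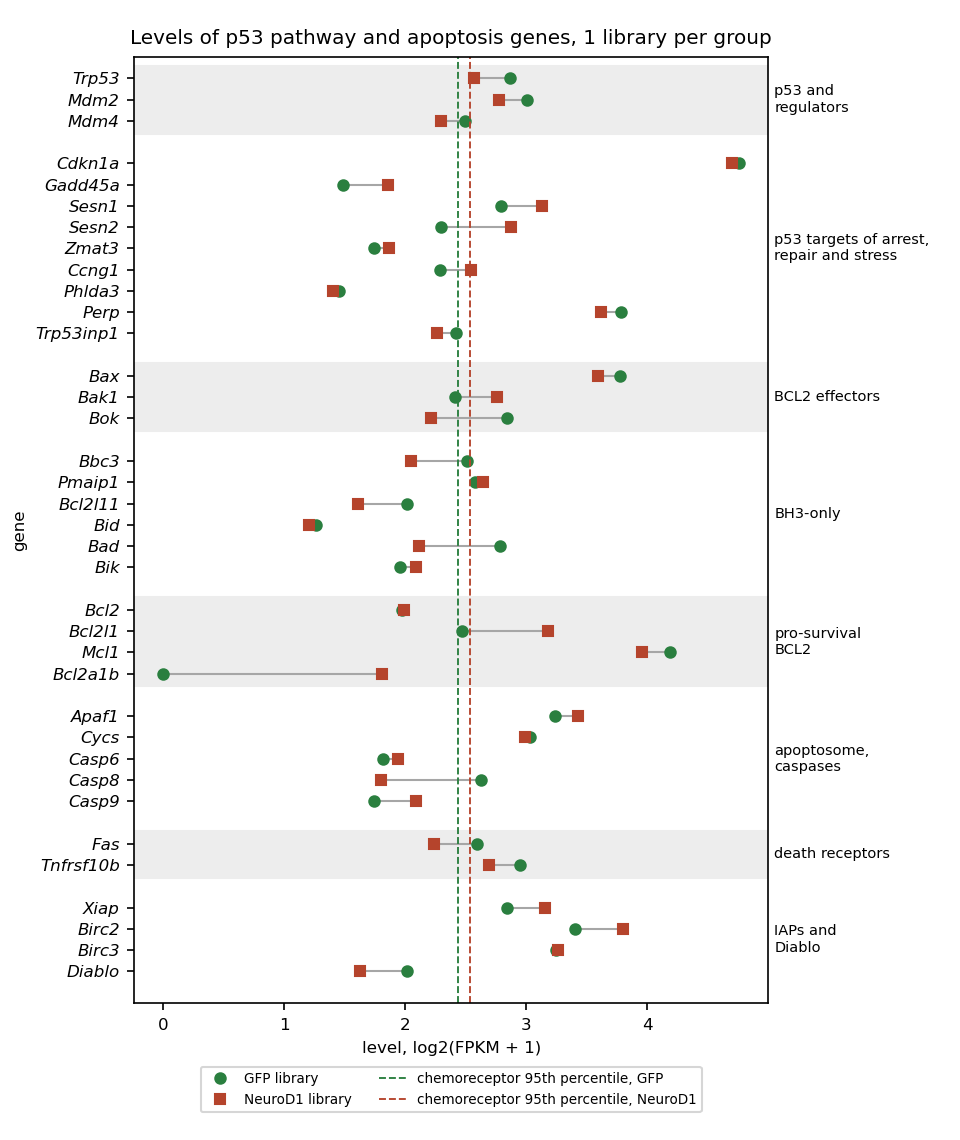
Level of each gene as log2(FPKM + 1) in the GFP library (circles) and the NeuroD1 library (squares), grouped by role, with dashed lines at the 95th percentile of chemoreceptor genes (4.40 and 4.78 FPKM before the transform). Cdkn1a and Mcl1 are farthest to the right in both libraries, and 12 genes lie at or left of the line of each library.

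The comparison asks how these genes differed between NeuroD1 and GFP. The order of levels was alike: across the 36 genes, which are not replicates, log2(FPKM + 1) of one library followed that of the other with r = 0.850 (Pearson) and rho = 0.839 (Spearman), and over 19918 protein-coding genes with a mean of at least 1 FPKM r was 0.795. All 36 genes passed that minimum, which uses the mean of both libraries. On the log2(FPKM + 1) scale, which understates the difference of low genes, 2 of 36 were at least 1.5-fold higher in NeuroD1, Bcl2l1 and Bcl2a1b, where 8.24% of protein-coding genes were. At least 1.5-fold lower were 3 of 36, Casp8, Bad and Bok, where 10.7% of protein-coding genes were. Both directions together make 13.9% of the genes against 18.9%, so the share was below that of all genes. The split depends on the scaling: with an equal FPKM sum in the libraries, which shifted the protein-coding median to -0.20, 1 of the 36 genes passed on the higher side (Bcl2a1b) and 4 on the lower (Bad, Bbc3, Bok and Casp8), against 4.75% and 18.3% of protein-coding genes. The median difference was -0.05 (17 genes above 0 and 19 below), against -0.01 for protein-coding genes, and it stayed at -0.05 without Bcl2a1b. At 2-fold only Bcl2a1b remained on the higher side and no gene on the lower, against 2.33% and 3.31% of protein-coding genes (5.64% together).

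The intervals give another count. Of 27 genes that had 20 or more reads, 3 showed an interval above 1 (Bcl2l1, Birc2 and Xiap), where 5.93% of 14791 protein-coding genes did, and 1 had an interval below 1 (Casp8), where 6.22% did. Together these are 14.8% of the genes against 12.1%. Of chemoreceptor genes with that many reads, 5.21% lay above and 5.52% below, 10.7% in all, so intervals that miss 1 were about as common in the background genes. For the other 23 the interval held 1. Higher counts narrow the interval: among the 14 genes of 100 to 350 reads, 3 lay above 1 and 0 below (21.4%), against 6.87% and 6.92% (13.8% together) of protein-coding genes in that range of reads. This range was not set in advance, and it leaves out Casp8, with 33 and 14 reads.

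**Figure D2:**
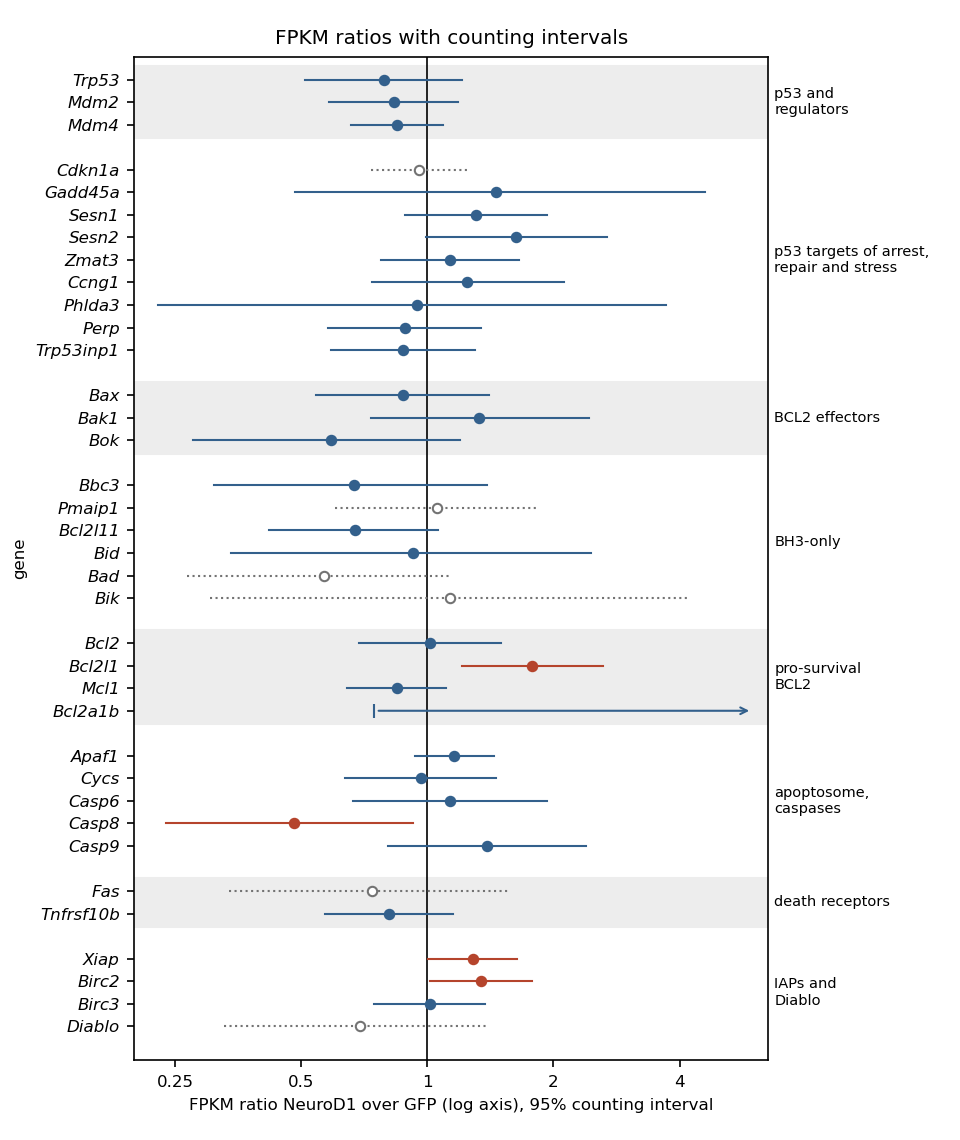
FPKM ratio of each gene, NeuroD1 over GFP, on a log axis with 95% counting intervals; open circles with dotted lines use the fewest whole reads that fit both values, and the arrow for Bcl2a1b starts at its lower limit of 0.748, since its GFP value is 0. The intervals of Bcl2l1, Xiap and Birc2 lie right of 1 and that of Casp8 left of it.

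p53 and its regulators stood slightly lower in NeuroD1, each within counting error. Trp53 (chromosome 11, 69580359 to 69591873, plus strand), which encodes p53, was at 6.27 FPKM with GFP and 4.94 FPKM with NeuroD1, from 56 and 39 reads (ratio 0.789, interval 0.510 to 1.21). Mdm2, the ubiquitin ligase of p53 and its target, was at 7.04 and 5.85 FPKM from 79 and 58 reads (ratio 0.832, interval 0.582 to 1.18). Mdm4, a relative of Mdm2 that blocks p53 activity, was at 4.62 and 3.92 FPKM from 151 and 113 reads (ratio 0.848, interval 0.658 to 1.09). The level of Mdm2 over that of Trp53 was 1.12 in GFP and 1.18 in NeuroD1.

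Cdkn1a (chromosome 17, 29090976 to 29100727, plus strand), which encodes the cell cycle inhibitor p21 and is a classic p53 target, was the most abundant of the 36 genes in both libraries. Its levels were 26.1 FPKM (GFP) and 24.9 FPKM (NeuroD1), above 99.4% and 99.2% of protein-coding genes. Its ratio was 0.956. Reads were not recovered with the annotated length, and the fewest whole reads that give both values, 128 and 108, set an interval of 0.733 to 1.24. Most protein-coding genes of 20 to 50 FPKM stood higher in NeuroD1, with a median log2 difference of 0.23 (85.2% of 162 genes above 0), while that of Cdkn1a was -0.06. Perp, a membrane protein of desmosomes and a p53 target, ranked 3 in GFP and 4 in NeuroD1, at 12.8 and 11.3 FPKM (55 and 43 reads, interval 0.580 to 1.34).

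Of the sestrins, which curb mTORC1 under stress, Sesn1 and Sesn2 stood higher in NeuroD1 without passing either count, while Sesn3 stood lower, at 4.57 and 3.26 FPKM from 154 and 97 reads (interval 0.548 to 0.926). Sesn2 was at 3.91 (GFP) and 6.34 FPKM (NeuroD1), from 30 and 43 reads (ratio 1.62, interval 0.995 to 2.68). Its log2 difference of 0.58 fell just short of the 1.5-fold limit of 0.585, and it passed with a pseudocount of 0.1 and with an equal FPKM sum over genes at or below 1000 FPKM. Sesn1 was at 5.91 and 7.73 FPKM from 52 and 60 reads (ratio 1.31, interval 0.886 to 1.93). Ccng1, a cyclin that p53 induces, was at 3.87 and 4.82 FPKM (ratio 1.25, interval 0.737 to 2.11).

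The remaining targets were low or near-equal. Zmat3, an RNA-binding protein, was at 2.34 and 2.65 FPKM with 59 reads in each library. Trp53inp1, which links p53 to autophagy and apoptosis, was at 4.33 and 3.80 FPKM (62 and 48 reads, interval 0.589 to 1.30). Gadd45a, a growth arrest and DNA damage gene, was at 1.80 and 2.62 FPKM from 7 and 9 reads. Phlda3, an inhibitor of AKT, was at 1.74 and 1.64 FPKM from 6 and 5 reads. These last reads are too few to show a 2-fold difference: the intervals ran from 0.483 to 4.60 for Gadd45a and from 0.228 to 3.71 for Phlda3. Of the 9 targets in this group 5 stood higher and 4 lower (4 and 5 with the equal FPKM sum), and none passed the 1.5-fold limit.

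Of the pore-forming effectors, Bax was the most abundant, at 12.6 FPKM with GFP and 11.1 FPKM with NeuroD1 from 44 and 34 reads (ratio 0.875, interval 0.543 to 1.40). Bak1, its partner in function, was at 4.33 and 5.75 FPKM from 23 and 27 reads (ratio 1.33, interval 0.734 to 2.43). Bax thus stood 2.92 times above Bak1 in GFP and 1.92 times in NeuroD1 on the FPKM scale. Bok, another effector, was at 6.15 and 3.62 FPKM from 25 and 13 reads. Bok was lower by 0.63 on the log2(FPKM + 1) scale, past the 1.5-fold limit, but its ratio of 0.589 had an interval of 0.277 to 1.20 that held 1.

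Among BH3-only genes, 4 of 6 stood lower in NeuroD1, as did 10227 of 19918 measured protein-coding genes. With the equal FPKM sum 6 of 6 stood lower, but that scaling moved the median of protein-coding genes to -0.20 as well. Bad, whose product binds BCL-XL and BCL2 and is held inactive by survival kinases, was at 5.86 (GFP) and 3.32 FPKM (NeuroD1), lower by 0.67 on the log2(FPKM + 1) scale and past the 1.5-fold limit. The fewest reads that give both values, 26 and 13, set an interval of 0.267 to 1.14 around its ratio of 0.566. Bbc3, which encodes the p53 target PUMA, was at 4.69 and 3.14 FPKM from 22 and 13 reads (ratio 0.669, interval 0.310 to 1.39). Bcl2l11, which encodes BIM, was at 3.04 and 2.04 FPKM from 54 and 32 reads (ratio 0.671, interval 0.419 to 1.06).

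The other BH3-only genes had ratios near 1, but with wide intervals. Bid, which caspase 8 cleaves to join the receptor route to the mitochondrial one, was at 1.40 and 1.30 FPKM from 11 and 9 reads (interval 0.339 to 2.46), below the chemoreceptor median in each library. Pmaip1, which encodes the p53 target NOXA, was at 4.96 and 5.23 FPKM (fewest reads 29 and 27, interval 0.601 to 1.85). Bik was at 2.88 and 3.26 FPKM (fewest reads 6 and 6, interval 0.303 to 4.24). No BH3-only gene with recovered reads had an interval that missed 1.

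The pro-survival group held the largest difference with read support on the higher side. Bcl2l1 (ENSMUSG00000007659, chromosome 2, 152780668 to 152831728, minus strand), which encodes BCL-XL and, by alternative splicing, the pro-apoptotic BCL-XS, was at 4.54 FPKM with GFP and 8.05 FPKM with NeuroD1. With 46 and 72 reads behind them, their ratio was 1.77 (interval 1.21 to 2.63), a log2 difference of 0.71. Bcl2l1 was 21st of the 36 genes by level in GFP and 8th in NeuroD1. Gene totals do not separate its isoforms. Its interval also missed 1 with each of the 3 other scalings between the libraries, while the equal FPKM sum took its log2 difference to 0.51, inside the 1.5-fold limit. Protein-coding genes of 5 to 10 FPKM, its range, had a median log2 difference of 0.03.

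Cell type markers were read beside Bcl2l1. Neuron markers stood higher for 8 of 12 genes, with a summed level of 57.1 FPKM in GFP and 70.7 FPKM in NeuroD1 and none at 0. Endothelial markers stood higher for 11 of 16, with sums of 240.4 and 269 FPKM. Of all measured protein-coding genes 48.6% stood higher. That share rose with level, from 46.8% at 2 to 5 FPKM to 65.2% at 10 to 20 FPKM and 85.2% at 20 to 50 FPKM. Microglia and macrophage markers stood lower for 11 of 14 measured genes, and mural cell markers for 7 of 9. The part of these marker lists in the result was not tested.

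Mcl1, a short-lived pro-survival protein, was second in level in both libraries, at 17.2 (GFP) and 14.6 FPKM (NeuroD1) from 130 and 97 reads (ratio 0.845, interval 0.643 to 1.11). It stood 3.79 times above Bcl2l1 in GFP and 1.81 times in NeuroD1. Bcl2, the founding member of the family, was at 2.92 and 2.97 FPKM from 59 and 53 reads (ratio 1.02, interval 0.689 to 1.5).

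Bcl2a1b, a pro-survival gene of myeloid cells, had 0 reads in GFP and 4 in NeuroD1, or 2.51 FPKM. Against a floor of 3 reads in GFP it was at least 1.51-fold higher, while the lower limit of its counting interval was 0.748. It passed the 1.5-fold count only through the NeuroD1 library. Bcl2a1b has near-identical copies, Bcl2a1a and Bcl2a1d, between which reads may be split, and 49.1% of its exon bases overlap the predicted gene Gm29094. Summed after the values were seen, the 3 copies had 10 reads in GFP and 20 in NeuroD1 (ratio 2.27, interval 1.012 to 5.42). Neutrophil markers summed to 75.9 and 78.1 FPKM, with 5 of 10 higher and none at 0, but single genes moved both ways. Past the 1.5-fold limit, 2 stood higher, S100a9 (10.41 and 20.63 FPKM) and Retnlg (3.72 and 10.96 FPKM). Lower past it were 3, S100a8 (7.83 and 2.96 FPKM), Elane (11.96 and 1.56 FPKM) and Csf3r (5.14 and 2.98 FPKM). Microglia and macrophage markers summed to 59.4 and 50.7 FPKM. The part of these marker lists in the values of the Bcl2a1 copies was not tested.

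**Figure D3:**
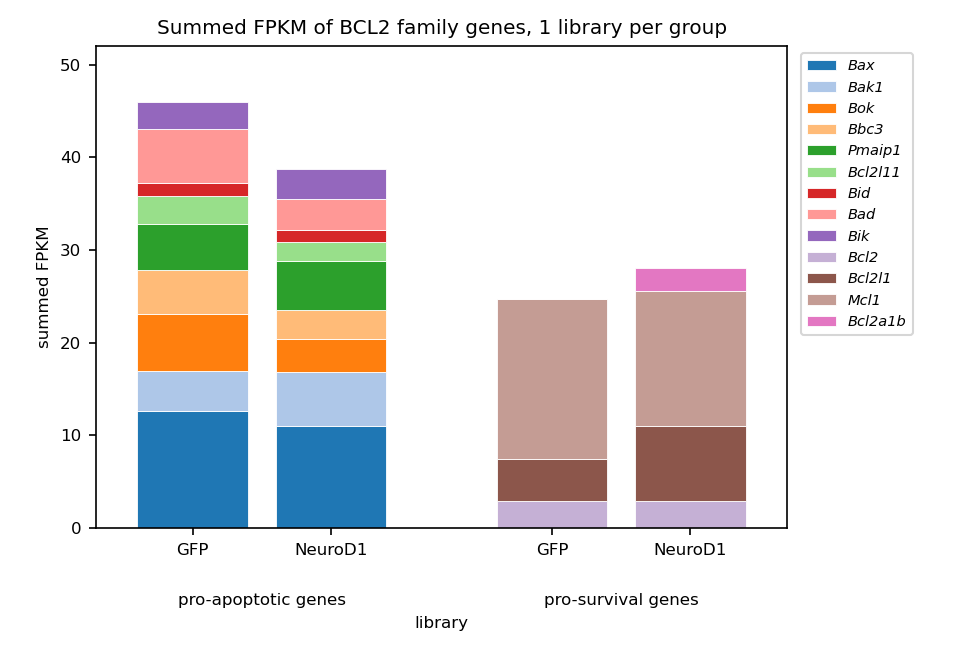
Summed FPKM of 9 pro-apoptotic genes (effectors and BH3-only genes) and 4 pro-survival genes of the BCL2 family in each library, with segments for single genes and bars from 0. The pro-apoptotic bar is 46.0 FPKM in GFP and 38.7 FPKM in NeuroD1, and the pro-survival bar 24.7 and 28.1 FPKM, of which Mcl1 is the largest segment.

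Set side by side, the ratios of the arms of the family lay on opposite sides of 1, each within counting error. With the equal FPKM sum both lay below 1 (0.716 for the pro-apoptotic and 0.966 for the pro-survival sum), and the median of protein-coding genes also moved, to -0.20. The 9 pro-apoptotic genes summed to 46.0 FPKM in GFP and 38.7 FPKM in NeuroD1, and the reads of the 6 with recovered reads, 179 and 128, gave a ratio of 0.810 (interval 0.640 to 1.02). The 4 pro-survival genes summed to 24.7 and 28.1 FPKM, with 235 and 226 reads and a ratio of 1.09 (interval 0.903 to 1.31). The pro-apoptotic sum over the pro-survival sum was 1.86 in GFP and 1.38 in NeuroD1. Of the pro-survival sum, Bcl2a1b made 0 FPKM in GFP and 2.51 FPKM in NeuroD1, from 0 and 4 reads. The sums also depend on the choice of genes. They leave out the pro-survival Bcl2l2, which stood lower (4.06 and 1.84 FPKM), and Bcl2a1a (3.32 and 5.01 FPKM) and Bcl2a1d (2.10 and 4.75 FPKM), which stood higher. The pro-apoptotic sum leaves out the BH3-only genes Bmf (3.19 and 2.25 FPKM) and Hrk (3.35 and 3.07 FPKM), which stood lower. Of all 12 other family genes, 6 stood higher and 6 lower. These sums are of RNA per length, not of protein, and fewer cells of a type and less RNA per cell cannot be told apart.

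Casp8 (ENSMUSG00000026029, chromosome 1, 58795374 to 58847503, plus strand), the initiator caspase of death receptors, was the lowest in difference of the 36 genes. It was at 5.16 FPKM in GFP, above the chemoreceptor 95th percentile, and at 2.48 FPKM in NeuroD1, below it, from 33 and 14 reads. The ratio was 0.481 (interval 0.238 to 0.923) and the log2 difference -0.82. Beside it, 11 of 14 measured microglia and macrophage markers stood lower, with a median log2 difference of -0.30. The other 3 stood higher: Tyrobp, the most abundant of the list, at 11.5 and 17.7 FPKM, Itgam at 0.901 and 1.74 FPKM, and P2ry12 at 1.07 and 1.41 FPKM. A second row named Itgam, too low to be among the 14, was at 0.848 and 0 FPKM. Mural cell markers also stood lower, for 7 of 9 measured genes, with a median log2 difference of -0.20. The median over protein-coding genes was -0.01. The part of these marker lists in the result was not tested.

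Casp9, the initiator caspase of the mitochondrial route, stood higher, at 2.35 and 3.26 FPKM from 27 and 33 reads (ratio 1.38, interval 0.807 to 2.39). Casp8 therefore stood 2.20 times above Casp9 in GFP and at 0.762 of it in NeuroD1. Casp6, an executioner caspase, had 31 reads in each library, at 2.51 and 2.85 FPKM. Apaf1, the scaffold of the apoptosome, was at 8.42 and 9.77 FPKM and had the most reads of the 30 genes, 168 and 172 (ratio 1.16, interval 0.932 to 1.44). Cycs, the gene of cytochrome c, was at 7.18 and 6.93 FPKM from 54 and 46 reads (ratio 0.965, interval 0.637 to 1.46).

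Both death receptors stood lower within counting error. Fas was at 5.03 FPKM with GFP and 3.70 FPKM with NeuroD1, and the fewest reads that fit, 20 and 13, gave an interval of 0.337 to 1.56. Tnfrsf10b, the receptor of the ligand TRAIL, was at 6.73 and 5.46 FPKM from 81 and 58 reads (ratio 0.811, interval 0.569 to 1.15).

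Of the IAP genes, Birc2 and Xiap stood higher. Birc2 (chromosome 9, 7818227 to 7837064, minus strand), which encodes the ubiquitin ligase cIAP1, was at 9.59 (GFP) and 12.9 FPKM (NeuroD1) from 97 and 115 reads (ratio 1.34, interval 1.02 to 1.78). Xiap (chromosome X, 42059679 to 42109656, plus strand), a direct caspase inhibitor, was at 6.17 and 7.91 FPKM from 129 and 146 reads (ratio 1.28, interval 1.005 to 1.64). Neither reached 1.5-fold. Both lower limits are close to 1, and that of Xiap fell below 1 with the libraries scaled to the same sum over protein-coding genes at or below 1000 FPKM, and those of both when all genes were scaled to an equal FPKM sum. Protein-coding genes of 10 to 20 FPKM, the range of Birc2, had a median log2 difference of 0.12, and 65.2% of 557 stood higher.

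Birc3, which encodes cIAP2 and lies next to Birc2 on the same strand (chromosome 9, 7848699 to 7873186), was at 8.50 and 8.60 FPKM from 94 and 84 reads (ratio 1.012, interval 0.745 to 1.37). Birc2 over Birc3 was 1.13 in GFP and 1.497 in NeuroD1. Diablo, the antagonist of IAPs, was at 3.03 and 2.09 FPKM, with an interval of 0.328 to 1.40 from the fewest reads that fit, 23 and 14. Other genes overlap 40.9% of its exon bases.

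**Figure D4:**
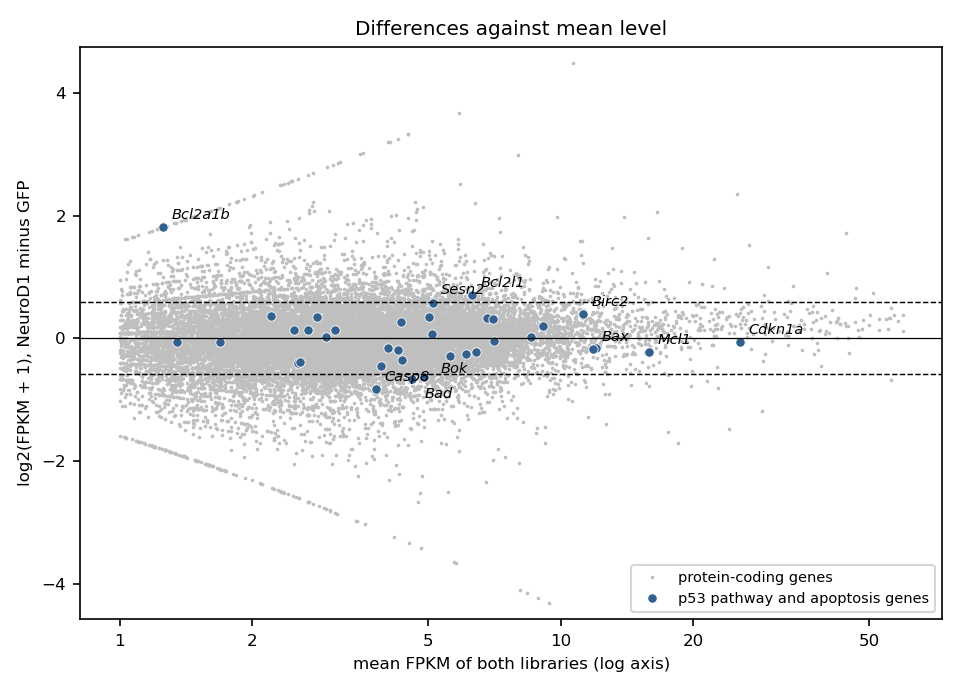
Difference in log2(FPKM + 1), NeuroD1 minus GFP, against mean FPKM on a log axis for the 36 genes (large points) and protein-coding genes with means of 1 to 60 FPKM (small points), with dashed lines at the 1.5-fold limits. Bcl2l1 and Bcl2a1b lie above the upper line, Sesn2 at 0.58 just below it, and Casp8, Bad and Bok under the lower line.

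Exons of 10 of the 36 genes overlap another annotated gene, and the sources used here do not say how strand and overlaps were counted. Beside Bcl2a1b and Diablo, the shares were 25.5% of exon bases for Bak1, with Ggnbp1, 20.5% for Bad, with Gpr137, 19.1% for Gadd45a, 17.7% for Bid, with Bcl2l13, 12.2% for Bax, 7.68% for Cdkn1a, 6.09% for Bcl2 and 1.81% for Casp9. The exons of Bcl2l1, Casp8, Birc2, Xiap and Mcl1 overlap no other gene.

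The rest of the pathway was taken from 5 lists of 83 names, 82 of them in the table and 81 measured. At least 1.5-fold higher were 7 and lower were 10 of the 81, where 8.24% and 10.7% of protein-coding genes were, with a median of -0.03, and of 69 genes that had 20 or more reads 7 showed an interval above 1 and 6 below it, where 5.93% and 6.22% of protein-coding genes did. The counts for each list below are to be read against these same shares. Of 29 other p53 targets, 1 was past the limit on the higher side and 2 on the lower. Eda2r, a TNF receptor family member, was at 1.38 and 3.48 FPKM from 18 and 40 reads (ratio 2.52, interval 1.41 to 4.66), and Aen, a nuclease of apoptosis, at 3.75 and 2.12 FPKM from 48 and 24 reads (ratio 0.566, interval 0.332 to 0.943). Ddb2, a DNA repair gene, was lower at 4.47 and 2.25 FPKM, with an interval of 0.232 to 1.03. Fdxr (interval 1.011 to 2.298) and the cell cycle inhibitor Cdkn1b (interval 1.005 to 2.21) stood higher, and Sesn3, given above with the other sestrins, lower. The p53 targets therefore showed both directions in this list too.

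None of 11 measured DNA damage kinases and p53 relatives passed the limit. Trp53bp1, which binds p53 and acts in repair of DNA breaks, had 105 and 134 reads (interval 1.11 to 1.88), and Chek1 (interval 0.460 to 1.25), Trp73 (0.406 to 1.37) and Usp7 (0.945 to 1.73) had intervals that held 1.

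Among 12 other BCL2 family genes 3 were higher and 1 lower (8.24% and 10.7% of protein-coding genes). Of the 3 higher, Bcl2l10 and Bcl2a1d rest on 5 and 10 and on 4 and 8 reads, with intervals of 0.705 to 8.45 and 0.607 to 10.3, and are named here after their values were seen. Bcl2l2, which encodes the pro-survival BCL-W, was lower than in GFP, at 4.06 and 1.84 FPKM from 40 and 16 reads (ratio 0.453, interval 0.237 to 0.827), the opposite direction to Bcl2l1. Bnip3l, a mitophagy receptor, was higher at 3.75 and 7.18 FPKM from 32 and 54 reads (ratio 1.91, interval 1.21 to 3.06). Bnip3 (interval 0.323 to 1.47) and Bcl2l15 (interval 0.784 to 3.06) had intervals that held 1.

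Among 17 other death receptor and IAP genes, 1 was higher and 3 lower (8.24% and 10.7% of protein-coding genes). Tradd, an adaptor of TNF receptors, was at 2.67 and 6.32 FPKM from 11 and 23 reads (ratio 2.37, interval 1.11 to 5.38), while Tnfrsf1a, the TNF receptor that recruits it, was at 5.94 and 3.56 FPKM (ratio 0.600, interval 0.319 to 1.09). Naip1 had 37 and 16 reads (interval 0.254 to 0.902) and its near relative Naip2 18 and 28 (interval 0.941 to 3.38), and reads of these copies may be split. Of 12 measured caspases and executioners, 2 were higher and 4 lower, among them Casp4 and Casp12 on the lower side, against the same 8.24% and 10.7%. Aifm1, a mitochondrial oxidoreductase, was at 2.71 and 5.38 FPKM from 24 and 42 reads (ratio 1.98, interval 1.17 to 3.42), and Dffa, the inhibitor of the apoptotic nuclease, had an interval of 0.918 to 3.91.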

How the data were processed

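The authors deposited 1 table of FPKM values per gene with 1 column per library, per the file headers. Per the submitters' processing notes the build was GRCm38 and the tools featureCounts 1.6.3, DESeq (version not stated) and Bowtie2 2.3.5.1. FPKM times merged exon length in GENCODE M21 came out as whole steps of 452.7 (GFP) and 512.75 (NeuroD1), which recovered reads to within 0.02 for 51161 genes. The table was used as scaled by the authors. For 6 of the 36 genes the annotated length gave no whole reads, and the fewest reads that give both FPKM values with a whole length were used for intervals, which are then no narrower than with more reads. This step was chosen after seeing the data.

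Differences are log2(FPKM + 1), NeuroD1 minus GFP, among genes with a mean of at least 1 FPKM. With 1 library per group there was no test, and reads may not be independent molecules. All genes of the chosen list are given. From the other lists, genes with the 4 largest differences at 20 or more reads, and those whose interval missed 1, are named. Genes and lists were chosen with earlier results of these data known. Read recovery and intervals were tested on simulated data. Computation used matplotlib 3.10.9, pandas 2.3.3, scipy 1.17.1, numpy 2.4.6 and Python 3.11.15.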

Additional observations from a re-analysis of the deposited data

How the results depend on the processing

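No paired analysis was possible because with 1 library a group nothing can be paired, and no replicate could be dropped. The 1.5-fold counts, 2 higher and 3 lower, are given here with the share of protein-coding genes that passed. They were 1 and 0 with a pseudocount of 5 (1.58% and 1.80%). At a mean FPKM of at least 5 they were 1 and 0 of 17 genes (7.74% and 5.76%). For the 2-fold limit they were 1 and 0 (2.33% and 3.31%). With the chemoreceptor median subtracted they were 5 and 5 (16.5% and 15.1%). The higher count was 1 at 20 or more reads (5.67%), with an equal FPKM sum in the libraries (4.75%), and without Bcl2a1b (8.24%). The counts of intervals above and below 1, 3 and 1, were 1 and 5 with the equal sum, when Bcl2l11, Mcl1, Mdm4 and Tnfrsf10b joined Casp8 on the lower side, and the lower count was 0 at 50 or more reads. For these settings the share of protein-coding genes with such intervals was not computed. The counts therefore cannot be set against that of all genes. The median difference, -0.05, was 0.016 at a mean FPKM of at least 5, -0.20 with the equal sum, which moved the median of protein-coding genes to -0.20 as well, and 0.021 with the chemoreceptor median subtracted. The filters change which genes are counted by construction. Otherwise the cause was not tested. Settings without Bcl2a1b and with the fewest whole reads were chosen after seeing the data. Under 20 reads, as for Gadd45a, Phlda3 and Bcl2a1b, differences of 2-fold were not detectable at this depth.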

Other observations

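The inflammatory caspase genes Casp1, Casp4 and Casp12 lie side by side on chromosome 9 and were singled out after their values were seen. Casp4 (5308828 to 5336783) had 25 reads in GFP and 6 in NeuroD1, or 3.05 and 0.829 FPKM (ratio 0.272, interval 0.0912 to 0.679). Casp12 (5345430 to 5373032) had 25 and 8 reads, or 2.95 and 1.07 FPKM (ratio 0.362, interval 0.141 to 0.829). Casp1 (5298517 to 5307265) had 9 and 2 reads, or 2.72 and 0.685 FPKM (ratio 0.252, interval 0.0265 to 1.22). All 3 stood past the 1.5-fold limit on the lower side, as 10.7% of protein-coding genes did. Of 14 measured microglia and macrophage markers, 11 also stood lower (median log2 difference -0.30), 5 of them past that limit and 0 past it on the higher side, with sums of 59.4 and 50.7 FPKM. Mural cell markers stood lower for 7 of 9 measured genes, 2 of them past that limit and 0 past it on the higher side. The part of these marker lists in these values was not tested. In NeuroD1 each of the 3 caspases lay below the chemoreceptor median of 1.41 FPKM, and in GFP below the chemoreceptor 95th percentile of 4.40 FPKM. Whether these 3 genes differ from the rest of the pathway was not tested.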
